A study of Mus musculus with 8 samples.

Results

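The genes that build coenzyme Q were examined in hearts of wild type (WT) and TAZG197V mice. The set was given as a list of 10 genes: Pdss1, Pdss2, Coq2, Coq3, Coq4, Coq5, Coq6, Coq7, Coq8a and Coq9. All 10 were present among the 55471 gene rows of the count tables, and all 10 were among the 15084 genes that passed the filter on low counts. The rule that names the members is gene function, and the list was chosen with earlier results of these data known.

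RNA from a piece of heart tissue was sequenced as 1 library per sample, with 4 WT and 4 TAZG197V libraries. The TAZG197V mouse is a knock-in of a Barth syndrome patient mutation that replaces a glycine with a valine in tafazzin, the enzyme that remodels cardiolipin. The edit was made with CRISPR/Cas9 in C57BL/6N zygotes and is carried by every cell of the body, and founders were bred to C57BL6/J mice. Taz lies on the X chromosome. The study describes its mutants as hemizygous males, while its methods and the labels also speak of homozygous offspring. The hearts came from mice of 14 weeks, and neither group received a treatment. WT controls carried no edited allele. The study calls its replicates biological, but the labels do not name the animals, so the p-values measure the spread between these 8 libraries.

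Coenzyme Q, or ubiquinone, carries electrons from complexes I and II and from several dehydrogenases to complex III in the mitochondrial inner membrane, where cardiolipin is a main lipid. Its polyisoprenoid tail comes from the mevalonate pathway and is joined to a ring derived from tyrosine. The ring is then modified by a set of enzymes that assemble at the inner membrane as the COQ complex. The heart, which depends on respiration, is rich in coenzyme Q, and inherited defects of several of the genes for its synthesis cause primary coenzyme Q deficiency.

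The libraries held between 23055689 and 36301031 counts assigned to genes. Levels are given as CPM, the count of a gene relative to the size of its library, with library sizes scaled by the TMM method. Taz itself measured between 58.7 and 63.8 CPM in WT and between 44.3 and 50.4 CPM in TAZG197V libraries, a log2 fold change of -0.37 (SE 0.055, edgeR quasi-likelihood test, Benjamini-Hochberg adjusted p = 0.00124). That difference is no check of the base change. Defining heart muscle genes were abundant in all 8 libraries, and the summed level of 8 cardiomyocyte markers ranged from 57326 to 64521 CPM in WT and from 47931 to 52300 CPM in TAZG197V, without overlap. Of these 8 markers, 4 were called lower (Tnnt2, Tnni3, Ryr2 and Pln) and none higher. Among markers of other cells, 2 of 5 endothelial and 2 of 5 fibroblast genes were called lower, and none of 4 macrophage genes was called. WT 4 stood apart with 5.00% of its counts on haemoglobin genes against 0.0213% to 0.096% in the other 7, and all 5 red cell markers were called lower. WT 4 and TAZG197V 4 also held more of the brain markers, with sums of 82.9 and 182.9 CPM against 5.53 to 9.98 CPM elsewhere. Of the brain list, 3 genes could be tested, with 1 call in each direction. The 1 adipocyte marker that could be tested was called lower, and the 1 skeletal muscle marker was not called. The part of these differences in the results below was not tested. In bulk tissue, fewer cells of a type and less RNA per cell cannot be told apart.

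Of the 10 biosynthesis genes, Coq8a and Coq9 fell in TAZG197V hearts with TMM scaling, by 19.1% and 22.5%, and none rose. Scaling to the cardiomyocyte markers, which moved the median log2 fold change of all genes to 0.24, called neither of them. It called 4 others higher, beside 38.6% of all genes tested (given last). Coq8a and Coq9 are also the members with the highest levels. The other 8 had log2 fold changes between -0.19 (Coq7) and 0.17 (Coq3) and did not pass the test. A gene was called when its adjusted p was under 0.05, its fold change was beyond 15% and its mean scaled count was at least 50. By this rule 2 of the 10 were called in either direction, beside 33.5% of all genes tested, and 2 of 10 were called lower, beside 15.1%. The share called higher was 18.5% of all genes tested and 0 of 10 here, in the edgeR test, and DESeq2 also called 0. An unadjusted p under 0.05 was found for 6 of the 10 members, beside 48.2% of all genes tested, and of these 6 Coq3 alone had a higher mean in TAZG197V. The median log2 fold change was -0.12 over the 10 members and -0.01 over all genes tested. In 1 member, Coq8a, the WT and TAZG197V libraries did not overlap, beside 33.2% of all genes tested. Its direction was lower, as in 13.9% of all genes tested, and 0 of 10 members were apart with higher values, beside 19.3%. Summed over the 10 genes, the level was between 1580 and 1883 CPM in WT and between 1339 and 1546 CPM in TAZG197V, a sum that Coq8a and Coq9 dominate.

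**Figure D1:**
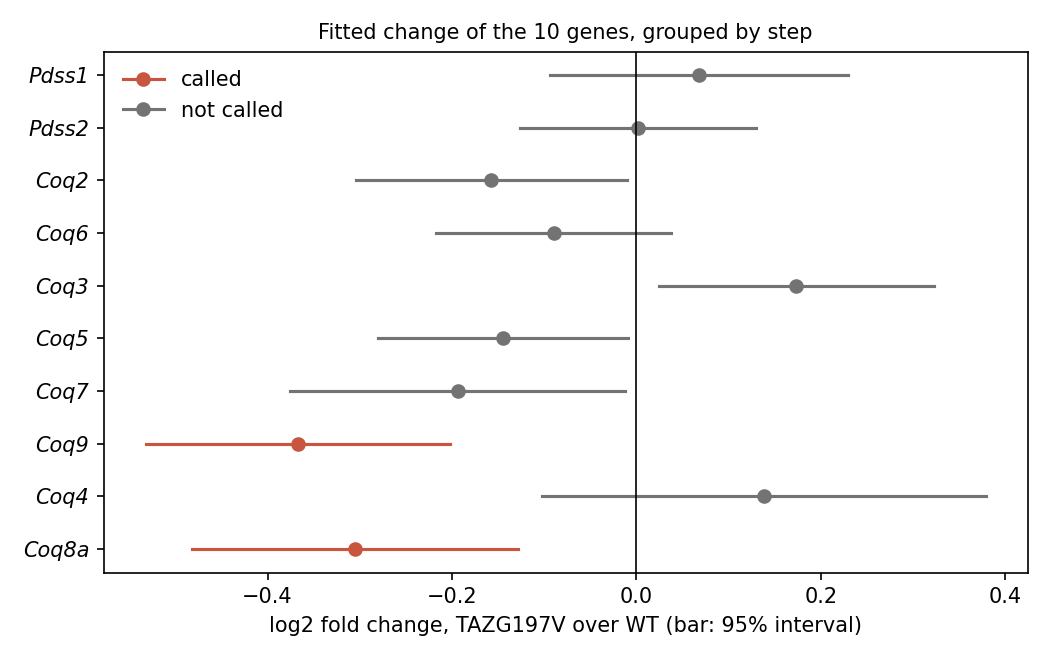
Log2 fold change of each member, TAZG197V over WT, as a point with a bar for the 95% confidence interval of the edgeR fit, red where called and grey where not. The intervals of Coq8a (-0.48 to -0.13) and Coq9 (-0.53 to -0.20) lie farthest below 0, and that of Pdss2 (-0.13 to 0.13) is centred on it.

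The levels of the members in WT hearts, compared as CPM per kilobase of merged exon, spanned a wide range. Coq9 was highest at 175.3 ± 24.2 (SD, n = 4) CPM per kilobase and Coq8a followed at 138.1 ± 13.2, with overlapping libraries. Coq5 at 41.7 ± 4.07 and Coq2 at 30.8 ± 2.17 CPM per kilobase came next. Coq3 at 20.3 ± 2.36 and Coq6 at 19.1 ± 1.44 CPM per kilobase overlapped, and Coq7 was lower at 11.0 ± 1.14. The lowest levels were those of Pdss2 at 4.62 ± 0.258, Coq4 at 3.92 ± 0.491 and Pdss1 at 3.65 ± 0.247 CPM per kilobase, and each of these overlapped its neighbour in the order. Coq9 was thus 48.1 times and Coq8a 37.9 times as high per kilobase as Pdss1. The Coq4 value is uncertain because 27.1% of its exon bases are shared with exons of Trub2 on the opposite strand, and the strand setting of the counting is not given in the sources used here.

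**Figure D2:**
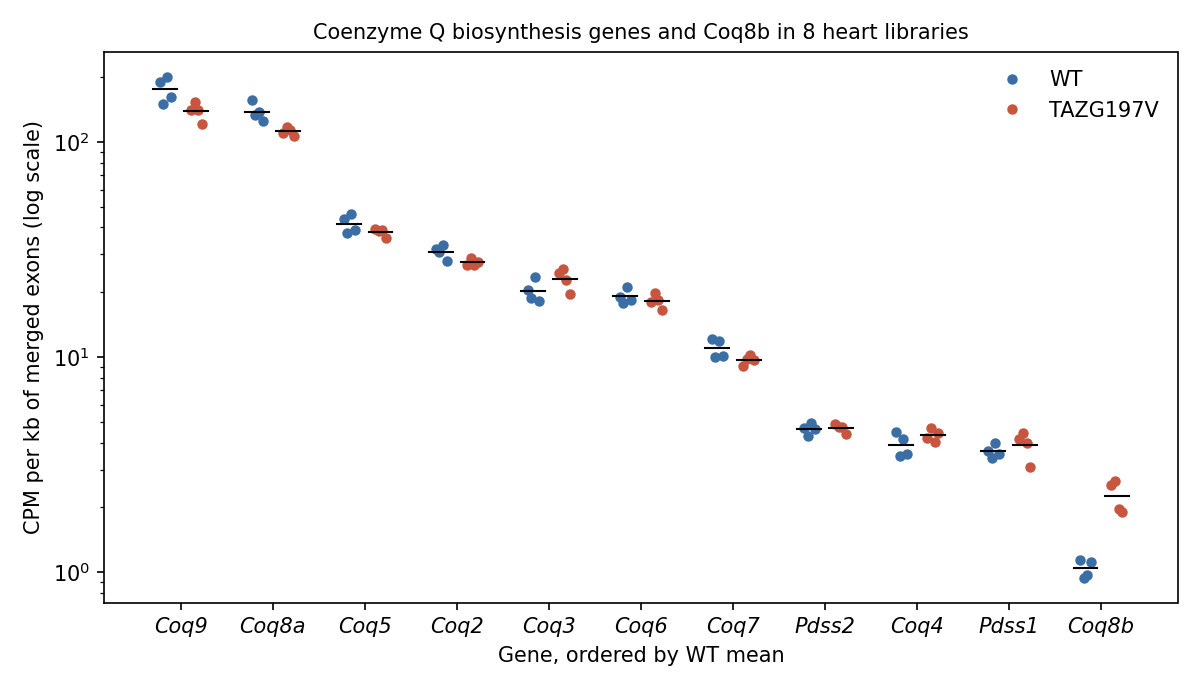
Levels of the 10 members and of Coq8b, the paralog of Coq8a, as CPM per kilobase of merged exons on a log axis, with 1 point per library (WT blue, TAZG197V red) and a black line at each group mean, ordered by the WT mean. Coq9 and Coq8a stand above the other members, Pdss2, Coq4 and Pdss1 lie together at the lower end, and Coq8b lies below them.

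The tail of coenzyme Q is made by a prenyl diphosphate synthase of 2 subunits, encoded by Pdss1 (chr2:22895522-22940266) and Pdss2 (chr10:43221486-43464882; all positions are in mm10). Neither differed detectably between the genotypes. Pdss1 measured 14.5 to 16.9 CPM in WT and 13.1 to 18.8 CPM in TAZG197V, with a log2 fold change of 0.07 (95% interval -0.09 to 0.23). Pdss2 measured 25.6 to 29.4 CPM in WT and 26.3 to 29.1 CPM in TAZG197V, with a log2 fold change of 0.00 (95% interval -0.13 to 0.13). For both genes the groups overlapped, and neither interval reached the -0.37 of Coq9. The balance of the subunits within a library, as the log2 ratio of Pdss1 to Pdss2, was -0.83 ± 0.030 (SD, n = 4) in WT and -0.76 ± 0.178 in TAZG197V, a difference of 0.07 (exact permutation test over 70 splits, two-sided p = 0.514, adjusted over 3 ratios 0.514). TAZG197V 4 lay below all WT libraries and the other 3 TAZG197V libraries above them, and without TAZG197V 4 the difference was 0.15 (adjusted p = 0.0857, exact permutation test).

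Coq2 (chr5:100654723-100675140) encodes the prenyltransferase that joins the tail to the ring precursor. Its level was 73.1 to 86.6 CPM in WT and 69.99 to 75.8 CPM in TAZG197V, and the groups overlapped. The log2 fold change was -0.16 (SE 0.064), and it missed the threshold with an adjusted p of 0.0850 in the edgeR quasi-likelihood test. Of the 50-base stretches of its exons, 7.63% also occur in the pseudogene Gm6728, so some reads cannot be placed between them.

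The ring is next altered by hydroxylases and methyltransferases. Coq6 (chr12:84361657-84373796), a flavin-dependent monooxygenase that hydroxylates the ring, measured 55.8 to 66.3 CPM in WT and 51.7 to 62.1 CPM in TAZG197V. Coq3 (chr4:21879673-21912162), the O-methyltransferase, measured 54.8 to 70.5 CPM in WT and 58.7 to 76.5 CPM in TAZG197V. Coq5 (chr5:115279666-115296972), the C-methyltransferase, measured 114.1 to 140.3 CPM in WT and 107.8 to 119.1 CPM in TAZG197V. All 3 overlapped between the genotypes, but their signs differed. The log2 fold change was -0.09 for Coq6, 0.17 for Coq3 and -0.14 for Coq5, with adjusted p-values of 0.233, 0.0665 and 0.0864 in the edgeR quasi-likelihood test.

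Coq4 (chr2:29787493-29797935), a protein of the COQ complex, measured 11.8 to 15.3 CPM in WT and 13.7 to 15.9 CPM in TAZG197V. Its log2 fold change of 0.14 had the widest interval of the set, -0.10 to 0.38. Coq7 (chr7:118509659-118533356), the hydroxylase that acts just before the final O-methylation, measured 77.9, 64.0, 76.6 and 65.0 CPM in WT 1 to 4 and 58.3, 62.8, 66.1 and 62.6 CPM in TAZG197V 1 to 4. WT 1 and WT 3 were high, and the other 6 libraries lay between 58.3 and 66.1 CPM. The log2 fold change of Coq7 was -0.19 (SE 0.079, edgeR quasi-likelihood adjusted p = 0.0864).

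Coq9 (chr8:94838321-94854895) encodes a lipid-binding protein that presents the precursor to the Coq7 hydroxylase. It measured 580.2, 456.0, 613.8 and 491.9 CPM in WT 1 to 4 and 427.4, 465.7, 429.0 and 369.2 CPM in TAZG197V 1 to 4. WT 1 and WT 3 were again high, TAZG197V 4 was lowest, and the groups overlapped only through TAZG197V 2, which lay above WT 2. The mean was 535.5 ± 73.8 CPM (SD, n = 4) in WT and 422.8 ± 39.9 CPM in TAZG197V, with a fitted log2 fold change of -0.37 (SE 0.072, edgeR quasi-likelihood adjusted p = 0.00484). The difference in mean log2 CPM was -0.21 among the libraries of sequencing lane 7 and -0.47 among those of lane 8, with 2 libraries per genotype in each. The call was lost with lane as a covariate (log2 fold change -0.34, adjusted p = 0.0581, edgeR) and without TAZG197V 4 (-0.31, adjusted p = 0.0581). The log2 ratio of Coq7 to Coq9, the hydroxylase and its partner, was -2.91 ± 0.070 (SD, n = 4) in WT and -2.76 ± 0.157 in TAZG197V, a difference of 0.16 (exact permutation test, two-sided p = 0.143, adjusted over 3 ratios 0.214). Without TAZG197V 4 it was 0.09 (adjusted p = 0.286, exact permutation test).

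Coq8a (chr1:180165238-180199602, also known as Adck3) encodes an atypical kinase-like ATPase that the COQ complex needs. It measured 828.3, 703.5, 727.6 and 664.3 CPM in WT 1 to 4 and 579.6, 623.1, 598.3 and 562.2 CPM in TAZG197V 1 to 4. The highest TAZG197V library, number 2, was below the lowest WT library, number 4. The mean fell from 730.9 ± 69.95 CPM (SD, n = 4) in WT to 590.8 ± 26.1 CPM in TAZG197V, and the fitted log2 fold change was -0.31 (SE 0.077, edgeR quasi-likelihood adjusted p = 0.0151). The difference was -0.35 within lane 7 and -0.26 within lane 8 in mean log2 CPM. The call was lost without TAZG197V 1 (log2 fold change -0.29, edgeR adjusted p = 0.0503). Exons of Cdc42bpa on the opposite strand cover 6.92% of the Coq8a exon bases.

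The promoters of the 2 called members are shown to give their sequence context. RefSeq windows on GRCm38.p6 were matched by symbol for 9 of the 10 members, 11 windows in all. Each runs from 250 bases before to 50 bases after the start and was searched whole on both strands, and the 250 bases before the start are printed. Capitals mark a match to the antioxidant response element core TGACNNNGC, which stands 45 bases before the start of Coq9 on the coding strand. The Coq8a window, one of 2 for that gene, lies within the annotated gene span and holds none of the 8 motifs searched. The printed bases lie at chr1:180196021-180196270 on the minus strand and chr8:94838163-94838412 on the plus strand, and both read 5′ to 3′.
Coq8a: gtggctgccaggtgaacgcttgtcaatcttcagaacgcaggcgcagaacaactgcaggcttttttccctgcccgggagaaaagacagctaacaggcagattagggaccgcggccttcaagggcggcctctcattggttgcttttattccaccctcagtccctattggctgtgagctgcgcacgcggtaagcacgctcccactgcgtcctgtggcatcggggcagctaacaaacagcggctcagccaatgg
Coq9: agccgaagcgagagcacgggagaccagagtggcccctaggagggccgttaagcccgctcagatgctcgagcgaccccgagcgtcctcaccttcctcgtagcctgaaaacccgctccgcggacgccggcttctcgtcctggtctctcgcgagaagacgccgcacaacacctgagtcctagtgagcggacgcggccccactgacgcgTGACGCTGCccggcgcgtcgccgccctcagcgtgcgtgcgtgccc

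Of the 8 motifs, 5 had a match in the 11 windows of the set. The antioxidant response element core was in 1 of 11, against 12.4% of all 32851 windows of the same length. The ETS core CCGGAAG was in 3 of 11 (8.86% of all windows), in 1 of them (Pdss2) before the start and in the other 2 (Pdss1 and Coq6) after it, and the NRF1 core GCATGCGC in 1 (2.71%). The sterol response core TCACNCCAC and the E-box CACGTG were in 1 window each, both that of Coq4 (1.24% and 7.15% of all windows). The estrogen-related receptor element TCAAGGTCA (0.423%), the cyclic AMP response element TGACGTCA (1.79%) and the ATF4 element TGATGNAAN (3.95%) had no match. A match describes the letters and is neither a binding site nor a cause.

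Several genes act beside the members, and a list of 16 such genes held 15 that were tested. Of these, 3 rose (Coq8b, Fdxr and Nqo1) and 1 fell (Coq10a), beside 18.5% and 15.1% of all genes tested. The list's median log2 fold change was -0.08 (0.27 scaled to the cardiomyocyte markers), against -0.01 for all genes tested. The fall in Coq10a was the largest of any gene on the list, and Coq8b had the largest rise. Coq8b (chr7:27233023-27257950, also known as Adck4) encodes the paralog of Coq8a. It measured 6.36, 5.28, 5.44 and 6.21 CPM in WT 1 to 4 and 14.2, 14.8, 11.0 and 10.7 CPM in TAZG197V 1 to 4. The groups did not overlap, and the lowest TAZG197V library was above the highest WT library. The mean was 5.82 ± 0.542 CPM (SD, n = 4) in WT and 12.7 ± 2.11 CPM in TAZG197V, so that Coq8b rose by 1.09 on the log2 scale (SE 0.133, edgeR quasi-likelihood adjusted p = 4.94e-04). These levels rest on 139 to 192 counts per library in WT and 291 to 547 in TAZG197V, and other annotated genes share 10.9% of its exon bases. Per kilobase, Coq8b in WT measured 1.04 ± 0.0971 CPM, below each of the 10 members. The difference was 1.32 within lane 7 and 0.90 within lane 8 in mean log2 CPM.

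With TMM scaling the paralogs changed in opposite directions, and this was examined as a ratio within each library, free of any scaling between libraries. Coq8a had 130.2, 133.3, 133.8 and 107.1 counts per count of Coq8b in WT 1 to 4 and 40.9, 42.2, 54.4 and 52.7 in TAZG197V 1 to 4. The lowest WT value, that of WT 4, was above the highest TAZG197V value. On the log2 scale the ratio was 6.97 ± 0.155 (SD, n = 4) in WT and 5.56 ± 0.212 in TAZG197V, a difference of -1.41. The exact permutation test gave two-sided p = 0.0286, the smallest that 70 splits allow, and 0.0857 after adjustment over the 3 ratios, so the ratio missed the threshold, which it could pass only together with another of the 3.

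**Figure D3:**
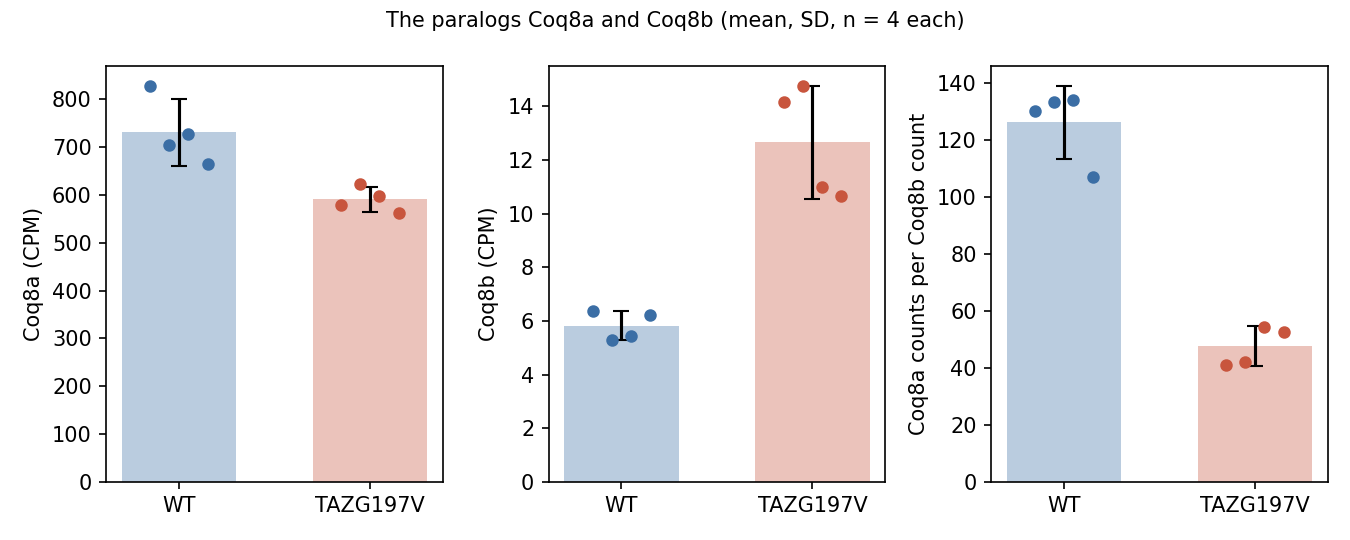
Level of Coq8a (CPM), level of Coq8b (CPM) and Coq8a counts per Coq8b count, with points for the libraries (WT blue, TAZG197V red), bars for the group mean and whiskers for the SD, n = 4 each. Coq8a is lower and Coq8b higher in all 4 TAZG197V libraries, and the ratio is between 107.1 and 133.8 in WT and between 40.9 and 54.4 in TAZG197V.

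Coq10a (chr10:128363100-128368997), one of a pair of genes for lipid-binding proteins needed for coenzyme Q function in respiration, measured 241.2, 208.1, 252.2 and 188.9 CPM in WT 1 to 4. It measured 165.1, 151.8, 153.9 and 155.5 CPM in TAZG197V 1 to 4, and all of these lay below the lowest WT library. The mean was 222.6 ± 29.3 CPM (SD, n = 4) in WT and 156.6 ± 5.87 CPM in TAZG197V, with a fitted log2 fold change of -0.50 (SE 0.091, edgeR quasi-likelihood adjusted p = 0.00322), and the difference in mean log2 CPM was -0.50 within each lane. Its paralog Coq10b had a log2 fold change of -0.11 (95% interval -0.50 to 0.29) and was not called. Fdxr, the ferredoxin reductase that supplies electrons to mitochondrial ferredoxins, measured 7.85 ± 0.375 CPM (SD, n = 4) in WT and 12.2 ± 0.825 CPM in TAZG197V without overlap and rose by 0.64 on the log2 scale (edgeR quasi-likelihood adjusted p = 0.00110). Nqo1, a quinone reductase of the cytosol, rose from 45.7 ± 14.5 to 60.9 ± 12.7 CPM (log2 fold change 0.54, adjusted p = 0.0153, edgeR), but its groups overlapped, its difference was 0.03 within lane 7 and 0.88 within lane 8, and it was called in 9 of 18 alternative fits. With a library left out, Nqo1 ranged from 0.24 to 0.70. Without WT 4, where its level was lowest at 26.2 CPM, its adjusted p was 0.236 (edgeR). Hpdl, for an enzyme of ring precursor synthesis, had a log2 fold change of -0.08. Pptc7, for a mitochondrial phosphatase, had one of -0.19, and neither was called. Pptc7 was called in 3 of 18 alternative fits and ranged from -0.26 to -0.05 with a library left out and to -0.03 without both number 4 libraries. Fdx2 did not pass the filter and was not tested, and its level is uncertain because exons of Gm38431 and Gm49373 on the same strand cover 72.7% of its exon bases.

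The mevalonate pathway, which supplies the isoprenoid units of the tail and of cholesterol, was represented by a list of 12 genes, all tested. The list also holds enzymes of branches that lead to other products, among them Dhdds and Ggps1. Of the 12, 3 rose and 1 fell, beside 18.5% and 15.1% of all genes tested. A positive log2 fold change was found for 11 of the 12, beside 48.8% of all genes tested, and the median was 0.24. Mvd, the diphosphomevalonate decarboxylase, rose by 0.43 on the log2 scale (edgeR quasi-likelihood adjusted p = 0.0144) with overlapping groups and was called in 16 of 18 alternative fits. Dhdds, a subunit of the prenyltransferase that makes dolichol, rose by 0.28 (adjusted p = 0.0106, edgeR). Ggps1, the geranylgeranyl diphosphate synthase, rose by 0.27 (adjusted p = 0.00993, edgeR). Pmvk, the phosphomevalonate kinase, fell by 0.41 (adjusted p = 0.0328, edgeR) and was called in 11 of 18 alternative fits.

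Enzymes that pass electrons into coenzyme Q, apart from complex I, formed a list of 12 genes with 11 tested. None rose and 5 fell, beside 18.5% and 15.1% of all genes tested. A negative log2 fold change was found for 10 of the 11, beside 51.2% of all genes tested, and the median was -0.18, which became 0.07 when scaled to the cardiomyocyte markers. Etfdh, the flavoprotein dehydrogenase that hands electrons from fatty acid oxidation to coenzyme Q, measured 829.9, 708.0, 834.2 and 776.5 CPM in WT 1 to 4 and 548.6, 548.8, 570.6 and 547.5 CPM in TAZG197V 1 to 4. The groups were apart, at means of 787.2 ± 58.9 CPM (SD, n = 4) and 553.9 ± 11.2 CPM, and Etfdh fell by 0.52 on the log2 scale (edgeR quasi-likelihood adjusted p = 5.25e-04). Etfa, a subunit of its electron donor, had a log2 fold change of -0.28 (adjusted p = 0.0107, edgeR). Sqor, the sulfide quinone oxidoreductase, had one of -0.40 (adjusted p = 0.00334, edgeR), and Sdhc, a membrane anchor of complex II, one of -0.28 (adjusted p = 0.0218, edgeR). Sdhc was called in 15 of 18 alternative fits. Prodh, the proline dehydrogenase, was the remaining call at -0.25 (adjusted p = 0.0372, edgeR), was named after its values were seen, and was called in 6 of 18 alternative fits. The other subunits of complex II were not called, with log2 fold changes of -0.18 for Sdha, -0.01 for Sdhb and -0.18 for Sdhd. Chdh was not tested because of its low counts.

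**Figure D4:**
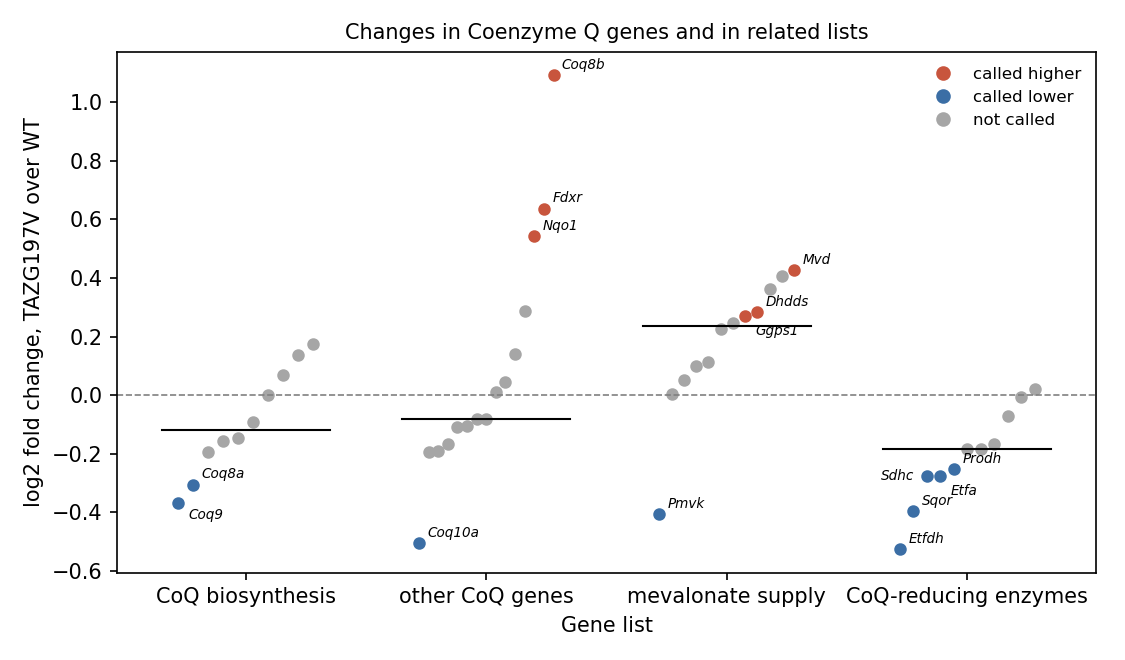
Log2 fold change, TAZG197V over WT, of every tested gene in the 4 lists, with TMM scaling, called genes coloured and named and a black bar at each list's median. The medians are -0.12 for the biosynthesis genes, -0.08 for the other coenzyme Q genes, 0.24 for mevalonate supply and -0.18 for the coenzyme Q reducing enzymes.

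The values of the members moved with the scale of the libraries, as those of all genes did. Because the cardiomyocyte markers were lower in TAZG197V, the test was repeated with their summed counts as the scale, an alternative chosen after seeing the data. Myh6 had the largest part in that sum, with a mean of 25314 CPM in WT. Its TAZG197V libraries lay below all WT libraries, but with TMM scaling it was not called (log2 fold change -0.28, adjusted p = 0.0651, edgeR). The marker scale moved the median log2 fold change of all genes to 0.24 and that of the members to 0.17. Over all genes it called 5821 higher (38.6%) and 879 lower (5.83%), against 2785 and 2275 with TMM scaling. Relative to the cardiomyocyte markers Coq8a was at -0.04 and Coq9 at -0.06 (edgeR adjusted p = 0.616 and 0.547), so neither fall was called, and Pdss1 (0.37), Pdss2 (0.28), Coq3 (0.46) and Coq4 (0.41) were called higher, 4 of 10 beside the 38.6% of all genes. Coq8b at 1.39 (adjusted p = 2.90e-05, edgeR) and Coq10a at -0.25 (adjusted p = 0.0152, edgeR) were called with either scale. Of the other coenzyme Q genes 7 were then called higher and 1 lower, of the mevalonate genes 8 higher and 0 lower (median 0.49), and of the reducing enzymes 2 higher and 1 lower. With DESeq2 size factors or upper-quartile scaling the medians of all 4 lists kept their sign. Without WT 4 and TAZG197V 4, the libraries with the highest brain marker sums, 5 of the 10 members were called with TMM scaling: Coq2 (-0.21), Coq7 (-0.21), Coq8a (-0.33) and Coq9 (-0.30) lower and Coq3 (0.23) higher, beside 34.1% of all genes tested in that fit.

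**Figure D5:**
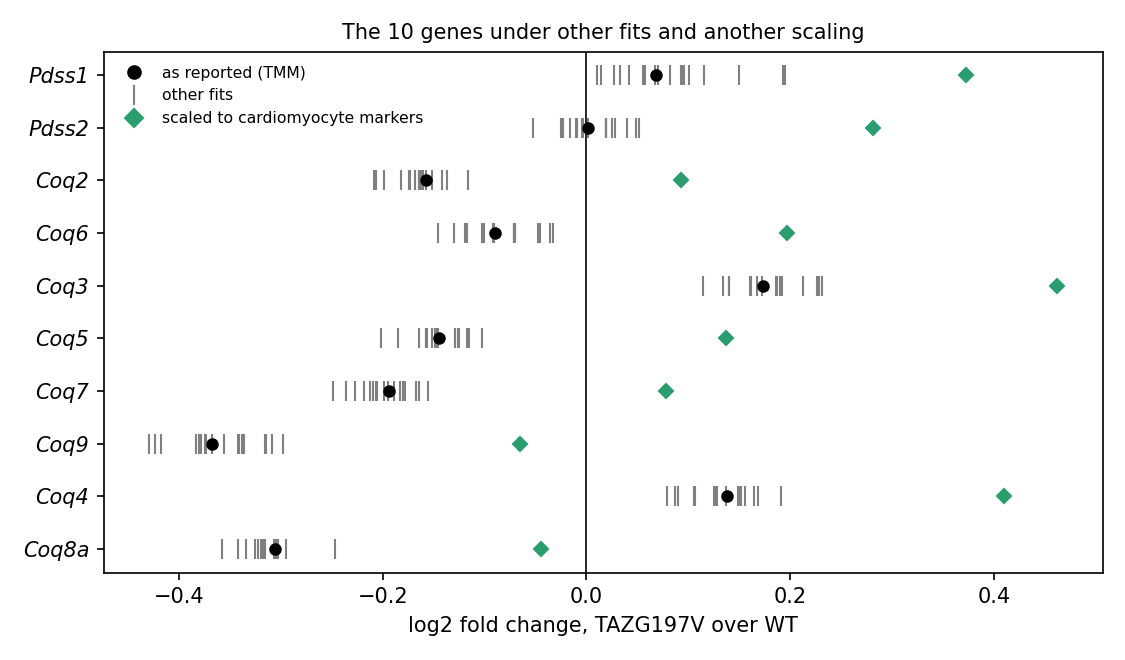
Log2 fold change of the 10 members with TMM scaling (black points), in the 18 alternative fits (grey ticks) and scaled to the cardiomyocyte markers (green diamonds), with a vertical line at 0. All 10 members lie higher with the marker scale, which moves the median of all genes from -0.01 to 0.24, and in the alternative fits Pdss2 is the member whose ticks lie on both sides of 0.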

How the data were processed

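Heart RNA of 4 WT and 4 TAZG197V libraries was analysed. The deposited values are raw read counts per gene, which the authors made by demultiplexing with bcl2fastq 2.20.0, checking reads with FastQC 0.11.9, aligning to mm10 with STAR 2.7.3a and counting reads over exons with featureCounts (Subread 2.0.0). The annotation release, strand setting and treatment of multiply mapped reads are not given in the sources used here. The study's own test used DESeq2 after svaseq. The count tables hold 92 spike-in rows, with summed counts of 0, which stayed out of all totals. Libraries held 23055689 to 36301031 counts.

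Counts were filtered with filterByExpr and scaled with TMM, and 2 surrogate variables were estimated with svaseq (sva 3.50.0, R 4.3.3) with genotype protected. Genotype was tested with edgeR 4.0.16 (glmQLFit, glmQLFTest, two-sided) over all 8 libraries and 15084 genes, with Benjamini-Hochberg adjustment. Within-library ratios were compared with an exact permutation test. The scripts were tested on simulated data. Lanes were read from the file names of the deposited counts, and each lane held 2 libraries per genotype. Gene positions came from GENCODE annotation of mm10 and promoter windows from RefSeq.

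All 10 members were named. From each related list up to 4 called genes with the largest absolute change were named, together with Coq8b, Coq10a, Coq10b, Hpdl, Pptc7 and Taz, and other uncalled genes are given as values only. The members and lists were chosen with earlier results of these data known. Alternatives were other scalings and filters, DESeq2 1.42.0, other covariates, a replicate block, stricter and looser call rules, and leaving out libraries. Replicates differed by more than sampling noise (lowest chi-square per gene 10.2). The groups share replicate numbers. The deviations of same-numbered libraries correlated at 0.0666 to 0.418, and those of differently numbered ones at -0.460 to 0.336. The numbers were not taken to pair the samples in the main test, and the replicate block was an alternative.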

Additional observations from a re-analysis of the deposited data

Results flagged for a closer look

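Within each genotype, 60 sets of 4 libraries were examined for a library far from the other 3, a check that flags about 1 in 20 sets by chance. It found 3, as many as chance gives. Dhdds measured 48.8 CPM in TAZG197V 4 and 40.4 to 41.1 CPM in the other TAZG197V libraries, so that the gap took 0.908 of the whole range. Etfdh measured 570.6 CPM in TAZG197V 3 and 547.5 to 548.8 CPM in the others, a share of 0.943. The log2 ratio of Coq8a to Coq8b ranged from 7.03 to 7.06 in WT 1 to 3, with WT 4 apart at 6.74, a share of 0.879. WT 4 is the library with 5.00% of its counts on haemoglobin genes.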

How the results depend on the processing

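Over 18 alternative fits Coq8a kept its direction (-0.36 to -0.25) and was called in 17, and Coq9 (-0.43 to -0.30) in 16. Coq8b (1.01 to 1.23) and Coq10a (-0.58 to -0.44) were called in all 18, as were Fdxr, Etfdh, Ggps1, Sqor, Etfa and Dhdds. Coq2 was called in 3, Coq3 in 2 and Coq7 in 2. Where a value changed, the cause was not tested.

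Of the members, 1 was called with lane as a covariate (1 lower, beside 11.9% of all genes), 4 with upper-quartile scaling (4 lower, beside 17.7%), 5 without both number 4 libraries (4 lower, 1 higher, beside 34.1% of all genes) and 0 at a fold change of at least 1.5 (0 lower). Scaling to the cardiomyocyte markers, chosen after seeing the data, called 4 (4 higher, 0 lower) and reversed Coq2 (0.092), Coq5 (0.14), Coq6 (0.20) and Coq7 (0.078), with the median of all genes at 0.24 and 38.6% of all genes called higher. Leaving out 1 library gave 1 to 3 called, 1 to 3 lower and 0 to 1 higher, with 1 called without TAZG197V 1 or without TAZG197V 4. The share of all genes called in each of these fits is not given here, so these counts cannot be set against it. Pdss2, close to 0, reversed with DESeq2 (-0.0095), DESeq2 size factors (-0.010), upper-quartile scaling (-0.053) and left-out libraries (-0.025 to 0.049). Coq10b ranged from -0.34 to 0.076 over left-out libraries, and Hpdl reversed without surrogate variables (0.0080), without the low-count filter (0.092), without both number 4 libraries (0.22) and over left-out libraries (-0.24 to 0.21).

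Of the other coenzyme Q genes, 7 were called with upper-quartile scaling (4 lower) and 2 at a fold change of 1.5 (0 lower), and 2 were called lower with DESeq2, with DESeq2 size factors and on adjusted p alone, and 1 to 2 with a library left out. Of the mevalonate genes, 2 were called without surrogate variables (0 lower) and 0 at a fold change of 1.5 (0 higher, 0 lower), and left-out libraries gave 3 to 5 higher and 0 to 1 lower. Of the reducing enzymes, 8 were called with upper-quartile scaling (8 lower), 0 at a fold change of 1.5 (0 lower) and 3 to 5 with a library left out (3 to 5 lower), 3 of them without WT 1 or without TAZG197V 1. At a fold change of 1.5, 1843 of the 15084 genes tested were called, 998 higher and 845 lower.

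The replicate number as a block left 2 members called, Coq8a and Coq9 (-0.30 and -0.34), made the count of mevalonate genes called lower 0, and gave 4272 calls over all genes against 5060. The same-numbered libraries correlated at 0.0666 to 0.418 in their deviations and differently numbered ones at -0.460 to 0.336. In the exact permutation tests of the ratios, 4 sign flips with the block cannot go below p = 0.125, and 3 against 4 libraries cannot go below 0.0571. Coq8b rests on 139 to 192 counts per WT library.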
